A study of Mus musculus with 6 samples.

Results

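On the microarray used here, some probe sets (small groups of probes designed to one stretch of transcript) are assigned by the platform annotation to several genes at once. A probe set was taken as a member when its annotation held at least 2 gene symbols, and rows that listed 1700029I01Rik, Gm13251, Gm13139 or Sox2ot were left out. That gave 5097 of 269751 probe sets, against 233753 with 1 symbol and 30892 with none. Members that carried the same set of symbols were summarised together, which gave 1566 symbol combinations, written below with a slash between the symbols.

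The 6 arrays measured RNA of mouse neural stem cells grown from cortex at embryonic day 14.5. Each of 3 cell lines, numbered 2, 7 and 8, was transduced with adenovirus carrying green fluorescent protein (Ad-GFP, the control) or Cre recombinase (Ad-Cre), at a multiplicity of infection of 100, and washed after 24 hours. Cre switches on mutant IDH (IDH1-R132H in the study's title), so the Ad-GFP cells carry the allele without expressing it. There were 3 arrays per virus, and 0 arrays had Cre without the mutant allele, so Cre itself and the mutant enzyme cannot be told apart as the source of a difference. The labels do not say whether the lines came from separate embryos, so p-values measure the spread between these lines only. A free-text mark (M or WT, missing on some arrays) stands with the viruses one way in lines 2 and 7 and the opposite way in line 8. The titles and transduction labels were followed, and exchanging line 8, which turns the sign of that line in the mean, made 43 of the 52 named differences with an unadjusted p under 0.05 smaller by more than 1.5 times (values in the closing section). A difference that line 8 shared in direction must shrink under the exchange, so that count does not test which labels are right.

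Shared probe sets arise in a few known ways. Genes on opposite strands can overlap at their ends, neighbouring genes can be joined in one readthrough transcript, and the precursors of microRNAs and small nucleolar RNAs lie inside longer host genes. Tandem gene families, such as clustered protocadherins, histones and vomeronasal receptors, hold copies so alike that one short probe matches many of them. In each case the signal is a property of the shared stretch and cannot be assigned to 1 gene from the table.

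Small RNA loci were among the clearest shared stretches, and 121 distinct microRNA symbols occurred in the combinations, of which 90 matched a mature sequence in RefSeq (GRCm38.p6). The mature sequences below belong to the loci whose values are described later. They are printed 5′ to 3′, with the seed (bases 2 to 8, the part that pairs with target mRNAs) in capitals. The array was hybridised with labelled total RNA and does not tell a mature microRNA from its precursor or host transcript.
mmu-miR-21a-5p (chr11:86584120-86584141, minus strand): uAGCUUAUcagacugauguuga
mmu-miR-21a-3p (chr11:86584082-86584103, minus strand): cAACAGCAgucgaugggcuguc
mmu-miR-22-5p (chr11:75463734-75463755, plus strand): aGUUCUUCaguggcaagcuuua
mmu-miR-22-3p (chr11:75463772-75463793, plus strand): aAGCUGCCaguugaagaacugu
mmu-miR-93-5p (chr5:138165574-138165596, minus strand): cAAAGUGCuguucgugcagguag
mmu-miR-3064-5p (chr11:106782736-106782757, minus strand): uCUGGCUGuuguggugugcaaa
mmu-miR-675-5p (chr7:142577112-142577133, minus strand): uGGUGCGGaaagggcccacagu
mmu-miR-675-3p (chr7:142577078-142577099, minus strand): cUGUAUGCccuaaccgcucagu
None of these 8 seeds was shared with another of the 8. In the whole RefSeq table, the miR-93-5p seed occurred in 6 other mature sequences, among them miR-17-5p, miR-20a-5p and miR-106b-5p. The miR-21a-5p seed occurred in 1 other (miR-21c) and the miR-3064-5p seed in 1 other (miR-3085-3p).

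Other combinations join genes that start together. Of 503 pairs with a promoter window (250 bases before to 50 after the start) for both genes, the windows overlapped on opposite strands in 33 pairs and on the same strand in 15. One window of each kind is printed, because the shared probe sets of both pairs are described below. In the Mrps6 window the capitals mark the GC box, GGGCGG on either strand (neighbouring matches may overlap), which occurred in 35.6% of all 32817 promoter windows of this length. It was found 4 times there. The Slc5a3 window overlaps it by 286 bases on the same strand.
Mrps6 window (chr16:92058086-92058385, plus strand): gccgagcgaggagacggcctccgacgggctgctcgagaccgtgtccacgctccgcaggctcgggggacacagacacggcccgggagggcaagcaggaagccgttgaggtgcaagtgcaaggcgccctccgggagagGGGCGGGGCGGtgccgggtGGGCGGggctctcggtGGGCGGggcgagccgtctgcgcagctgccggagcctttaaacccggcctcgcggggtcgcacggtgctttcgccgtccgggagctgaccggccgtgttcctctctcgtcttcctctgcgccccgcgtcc
In the Sdf2 window the capitals mark the 142 bases that it shares with the Supt6h window on the opposite strand. The starts of both genes lie 43 bases apart.
Sdf2 window (chr11:78245496-78245795, plus strand): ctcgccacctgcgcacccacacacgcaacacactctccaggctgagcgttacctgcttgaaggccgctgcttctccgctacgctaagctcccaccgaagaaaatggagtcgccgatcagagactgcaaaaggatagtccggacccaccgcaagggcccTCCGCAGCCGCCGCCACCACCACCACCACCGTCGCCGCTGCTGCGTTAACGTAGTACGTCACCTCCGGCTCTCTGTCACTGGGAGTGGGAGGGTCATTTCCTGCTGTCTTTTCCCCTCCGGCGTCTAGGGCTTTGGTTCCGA
Snrpn and Snurf, which are made from one bicistronic transcript, had the same window.

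The combinations were sorted by name and by RefSeq gene extents into 5 classes. The overlapping class held 390 combinations (1142 probe sets), gene families 213 (762), small RNA loci 128 (183) and genes within 10 kb of each other 115 (544). The remaining 720 (2466 probe sets) were mostly predicted genes that lie farther apart on one chromosome. Of 2597 distinct symbols, 2169 matched RefSeq by symbol and 417 by synonym, and 11 were not placed. Most combinations were pairs (1002 of 1566), the longest listed 20 symbols, and 702 rested on 1 probe set.

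Many member probe sets repeated each other exactly. The values of 1357 of 5097 (26.6%) were identical on all 6 arrays to those of another row of the table, against 0.208% of probe sets with 1 symbol and 6.03% of those with none. The share was 42.3% in the remaining class, 30.6% at small RNA loci, 27.7% in families and 8.64% within 10 kb, and 0 of the 1142 probe sets of the overlapping class were repeated. The largest set of identical probe sets had 16 rows, and 80 value patterns appeared under different combinations. Counts of combinations below therefore count some measurements more than once, and the 5097 rows hold 4267 distinct patterns.

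All values are log2 signals, and every difference is Ad-Cre minus Ad-GFP within the line, averaged over the 3 lines. Signals of the shared probe sets spanned the range of the array. On the Ad-GFP arrays 28.7% of combinations lay below the lower quartile of all values (6.59), against 30.0% of genes read by their own probe sets. Families were dimmest, with 46.5% below that level, and the within 10 kb and overlapping classes brightest, with 13.9% and 16.7%. The labelled cell type was checked on 1-symbol probe sets. The median Ad-GFP signal was 12.23 over 10 neural stem cell markers, 6.97 over 6 microglial, 6.75 over 5 endothelial and 6.66 over 6 fibroblast and pericyte markers. It was 10.38 over 6 oligodendrocyte lineage, 9.18 over 5 neuronal and 9.01 over 4 astrocyte markers. Markers of the neural lineages, stem cells included, moved unevenly with Ad-Cre. Of the 10 neural stem cell markers, Prom1 (-1.31), Msi1 (-0.48), Hes5 (-0.39) and Pax6 (-0.28) were lower and Hes1 (0.42) was higher. The others differed by -0.12 to 0.09. Of 5 neuronal markers, Snap25 (-2.45), Dcx (-1.80), Syt1 (-0.69) and Tubb3 (-0.48) were lower and Rbfox3 was higher (0.39). Of 6 oligodendrocyte lineage markers, Pdgfra differed by -2.72 and the others by -0.17 to 0.01. Of 4 astrocyte markers, Aldh1l1 (-1.66) and Aqp4 (-1.36) were lower and Gfap (1.02) and S100b (0.61) higher in the mean. Gfap rose in line 2 alone (7.48 with Ad-GFP, 11.27 with Ad-Cre). It fell in line 7 (7.73 to 7.55) and in line 8 (8.33 to 7.77). Against their means, Hes5 (12.54 to 12.87) and Tubb3 (9.39 to 9.42) rose in line 2 and Syt1 (9.31 to 9.75) in line 7. S100b did not rise in line 7 (8.09 to 8.08). In bulk RNA, fewer cells of a type and less RNA per cell cannot be told apart.

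No combination passed an adjusted p of 0.05 (limma, Benjamini-Hochberg over all 24725 genes and combinations), and 0.0% of the whole table did. The lowest adjusted p among the 1566 was 0.0851. At an unadjusted p under 0.05, 198 combinations differed (12.6%), against a background of 12.4% over the table. Of these, 91 were higher with Ad-Cre (background 6.79%) and 107 lower (background 5.56%). The members' share was thus close to the background.

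All 3 lines agreed in direction in 511 combinations (32.6%), against 37.9% of the table, with 265 higher (background 21.8%) and 246 lower (background 16.1%). In 228 (14.6%) the Ad-Cre and Ad-GFP arrays did not overlap, against 20.5%, with 112 higher (background 11.7%) and 116 lower (background 8.8%). An unadjusted p under 0.01 with one direction in all lines was found in 55 (3.51%), against 4.2%. Of single member probe sets, 316 (6.2%) had an unadjusted p under 0.05, against 10.7% of all probe sets. Of these, 144 were higher (background 5.26%) and 172 lower (background 5.47%), and 0 passed after adjustment. The median difference was 0.01 over combinations and 0.03 over genes read by their own probe sets.

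The lines did not contribute equally. In line 2, 901 combinations were higher with Ad-Cre (57.5%, background 55.4%), in line 7 767 (49.0%, background 55.0%) and in line 8 705 (45.0%, background 51.5%). Differences above 1 log2 unit were found in 103 combinations in line 2 (background 5.49%), 35 in line 7 (background 1.7%) and 9 in line 8 (background 1.08%). Leaving out line 2, 44 combinations passed an adjusted p of 0.05 (2.81%, 16 higher and 28 lower), against 4.21% of the table, and 33 of the 44 had the same sign in line 2. Among the 20 combinations with the largest differences described next, 13 were in that group of 44. Those 20 were picked on the same arrays for the same direction in all 3 lines, so this overlap is partly built in. At an unadjusted p under 0.05 without line 2 there were 345 (background 17.1%), 126 higher (background 9.04%) and 219 lower (background 8.09%). A spread estimated from the other 2 lines rests on very few arrays.

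The 10 lower and 10 higher combinations with the largest differences were chosen so that each line moved the same way. In the lower ones the mean ran from -0.74 (Dnase2a/Mast1) to -3.25 (Churc1/Fntb), and in the higher ones from 0.72 (Mrps6/Slc5a3) to 1.59 (a combination led by AA792892).

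The lowest value was read by 1 probe set listed for Churc1 and Fntb. Churc1 encodes Churchill, a small zinc-binding protein, and Fntb the beta subunit of protein farnesyltransferase. The signals were 7.60, 8.32 and 7.93 on the Ad-GFP arrays of lines 2, 7 and 8, and 4.45, 3.86 and 5.78 on the Ad-Cre arrays. All Ad-Cre arrays were lower than all Ad-GFP arrays. The difference was -3.25 ± 0.44 (SE, limma adjusted p = 0.108), and it was -3.30 without line 2.

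The probe sets numbered around this one placed the difference more narrowly. The Churc1 probe sets numbered just before and just after it differed by -2.79 and -3.92, and the other 3 Churc1 probe sets by 0.31, -0.63 and -0.61. The 17 probe sets of Fntb alone ranged from -0.60 to 0.29, and 12 of them were lower. So 3 neighbouring probe sets of 23 carried differences between -2.79 and -3.92, and the shared one was in their middle. Summarised over its own 5 probe sets, Churc1 differed by -0.82.

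Pcdh10 encodes a delta-type protocadherin that mediates adhesion between neurons, and the transcript 1700027H10Rik overlaps it on the opposite strand. Their 1 shared probe set read 9.17, 8.53 and 8.74 in the Ad-GFP controls and 6.84, 7.10 and 7.60 with Ad-Cre in lines 2, 7 and 8. The groups did not overlap, and the difference was -1.63 ± 0.25 (adjusted p = 0.117, -1.28 without line 2). The 11 own probe sets of Pcdh10 gave -0.69 and the 3 of 1700027H10Rik gave 0.05.

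Gpr17 encodes a G protein-coupled receptor of oligodendrocyte precursors, and Lims2 a LIM-domain protein of focal adhesions. Their 2 shared probe sets read 9.30, 9.14 and 8.75 in the Ad-GFP controls and 7.03, 8.07 and 7.85 with Ad-Cre. Every Ad-Cre array was below every Ad-GFP array, by -1.41 ± 0.29 on average (adjusted p = 0.184) and by -0.99 without line 2. The own probe sets of both genes were lower too. Gpr17 gave -2.86 over 3 probe sets and Lims2 -1.37 over 7, and the 10 ranged from -4.03 to -0.55. Of the 6 oligodendrocyte lineage markers Pdgfra, the receptor of precursor cells, was also lower (from 10.62 to 7.90 on average), and the others, Olig1 and Olig2 among them, differed by at most 0.17 in size. The part of such cells in these values was not tested.

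In 3 more overlapping pairs the shared stretch was lower by about 1 log2 unit with a small spread between lines. Igsf10 (an immunoglobulin superfamily protein) lies across Med12l (a Mediator subunit) on the opposite strand, and their 1 shared probe set read 8.49, 8.23 and 7.86 in the Ad-GFP controls and 7.15, 6.85 and 6.87 with Ad-Cre. The difference was -1.24 ± 0.12 (adjusted p = 0.0936). Own probe sets gave -1.02 for Igsf10 and 0.04 for Med12l, so the shared value was on the side of Igsf10.

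Lypd1, a Ly6-type protein that binds nicotinic receptors, overlaps the zinc-sensing receptor gene Gpr39. The 4 shared probe sets read 8.66, 7.93 and 8.13 in the Ad-GFP controls and 7.71, 6.97 and 7.15 with Ad-Cre. The 3 lines moved almost equally, which gave the lowest adjusted p of all combinations (-0.96 ± 0.09, adjusted p = 0.0851). Lypd1 itself gave -1.03 and Gpr39 0.04.

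Slc30a10, a manganese and zinc transporter, shares 2 probe sets with Gm2061. They read 8.45, 8.24 and 8.09 in the Ad-GFP controls and 7.63, 7.22 and 7.08 with Ad-Cre, without overlap (-0.95 ± 0.10, adjusted p = 0.0953). Slc30a10 alone was lower by more, at -2.09, and Gm2061 alone at -1.18. The shared value lay outside both.

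Cd97, an adhesion receptor, and Ddx39, an RNA helicase, shared 5 probe sets that gave -0.83 ± 0.12 (adjusted p = 0.110). The array groups overlapped there, because line 2 started lower (9.25, 9.94 and 10.25 with Ad-GFP, 8.65, 9.01 and 9.28 with Ad-Cre). Dnase2a (a lysosomal nuclease) and Mast1 (a microtubule-associated kinase) gave -0.74 ± 0.11 over 4 probe sets. Own probe sets gave -1.12 for Cd97 against -0.18 for Ddx39, and -0.54 for Mast1 against -0.15 for Dnase2a.

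Differences in the overlapping class ran from -1.63 to 1.22. The higher overlapping pair with the lowest unadjusted p was Mrps6, a protein of the mitochondrial ribosome, and Slc5a3, the sodium and myo-inositol cotransporter. These genes start within 14 bases of each other, in the promoter window printed above. Their 3 shared probe sets read 11.54, 11.67 and 11.48 in the Ad-GFP controls and 12.30, 12.43 and 12.13 with Ad-Cre. All Ad-Cre arrays were above all Ad-GFP arrays (0.72 ± 0.07, adjusted p = 0.0953, 0.70 without line 2).

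Each of the 12 probe sets of this locus was higher with Ad-Cre. The 3 shared ones gave 0.66 to 0.79, the 4 of Slc5a3 gave 0.50 to 0.68, and the 5 of Mrps6 gave 0.03 to 0.37. The shared value was above both own values (0.58 for Slc5a3 and 0.27 for Mrps6).

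Pairs with overlapping promoter windows on opposite strands had a median difference of 0.19 over the 33, beside 0.02 over the whole table. In all 3 lines, 11 were higher and 1 lower (backgrounds 21.8% and 16.1%). At an unadjusted p under 0.05, 5 of the 33 differed, 4 of them higher (background 12.4% in all, 6.79% higher). Sdf2, a protein of the endoplasmic reticulum, and Supt6h, an elongation factor of RNA polymerase II, share the window printed above. Their probe set read 9.03, 8.87 and 8.60 in the Ad-GFP controls and 9.48, 9.28 and 8.97 with Ad-Cre. The groups overlapped, since line 2 and line 8 differ in level, yet each line was higher by about the same amount (0.41 ± 0.09, adjusted p = 0.214). In the 15 same-strand pairs the median was -0.02, with 1 higher and 2 lower in all 3 lines. At an unadjusted p under 0.05, 3 of the 15 differed, 1 of them higher, beside the same backgrounds.

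Entpd1 encodes CD39, an ectonucleotidase, and RefSeq lists E130009M23Rik as its synonym. The 2 probe sets under both names read 6.91, 6.32 and 6.23 in the Ad-GFP controls and 7.56, 7.50 and 7.23 with Ad-Cre (0.94 ± 0.13, adjusted p = 0.110). The 18 probe sets under Entpd1 alone went the other way, at -0.60.

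Parp10 and Plec, genes of an ADP-ribosyltransferase and of the cytolinker plectin, gave 0.73 ± 0.15 with overlapping array groups. Plec alone rested on line 2, where it read 7.62 in the Ad-GFP controls and 9.93 with Ad-Cre. Dlx1, a homeobox gene of ventral forebrain interneurons, shares 4 probe sets with its antisense transcript Dlx1as. They read 7.10, 6.87 and 6.90 in the Ad-GFP controls and 7.32, 8.13 and 7.70 with Ad-Cre (0.76 ± 0.21, adjusted p = 0.285). Own probe sets gave 0.29 for Dlx1 and 0.00 for Dlx1as.

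Small RNA loci had 20 of 128 combinations with an unadjusted p under 0.05, or 15.6% beside the 12.4% of the table. Of these, 14 were higher (background 6.79%) and 6 lower (background 5.56%). The share was 18.3% within 10 kb, 13.1% in the overlapping class, 11.9% in the remaining class and 9.39% in families. Of the 100 small RNA combinations with a microRNA symbol, 10 were higher and 4 lower, beside the same backgrounds. Of the 33 with a small nucleolar or spliceosomal RNA, 4 were higher and 2 lower. Each of the 20 rested on 1 probe set. The lists were drawn up with earlier results of these data known.

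The largest was the probe set listed for Mir21 and Vmp1. Vmp1 encodes a membrane protein of autophagy, and the precursor of miR-21, a microRNA often raised in tumours, lies at its end. The probe set read 8.0, 7.77 and 6.45 in the Ad-GFP controls and 9.06, 8.51 and 8.83 with Ad-Cre in lines 2, 7 and 8. All 3 Ad-Cre arrays were above all Ad-GFP arrays, and line 8 had the lowest control. The difference was 1.39 ± 0.34 (adjusted p = 0.233), which was 1.56 without line 2, 1.72 without line 7 and 0.90 without line 8, and with the labels of line 8 exchanged it turned to -0.20.

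The 22 probe sets of Vmp1 alone were summarised at 0.13. They ranged from -0.48 to 1.02, and the 6 numbered next after or just before the shared one, from the second to the eighth of the series, were each higher, by 0.48 to 1.02. The shared probe set thus stood in a run of higher probe sets at one end of the series, and most of the others lay near 0.

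The combination of Mir22 with Tlcd2 and 2210403K04Rik, the host transcript, read 7.88, 7.83 and 7.64 in the Ad-GFP controls and 8.72, 8.24 and 8.21 with Ad-Cre. The groups did not overlap (0.61 ± 0.12, adjusted p = 0.174). Own probe sets gave 0.20 for Tlcd2 and -0.03 for 2210403K04Rik. Mir5136 with 5730408K05Rik gave 0.59 ± 0.12, and the 1 own probe set of 5730408K05Rik gave 0.69.

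Mcm7, a subunit of the replicative helicase, hosts Mir93. Their probe set was dim (5.46 on average with Ad-GFP, below the lower quartile of all values) and gave 0.31 ± 0.09 (adjusted p = 0.306). Ddx5, an RNA helicase that takes part in microRNA processing, shares a bright probe set with Mir3064 that read 12.75, 12.79 and 12.82 in the Ad-GFP controls and 12.32, 12.52 and 12.65 with Ad-Cre (-0.29 ± 0.08). The 24 own probe sets of Ddx5 gave -0.16.

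Among small nucleolar RNA hosts, the ribosomal protein gene Rps3 shares a probe set with Snord15b. It read 8.47, 8.21 and 8.85 in the Ad-GFP controls and 9.59, 9.22 and 9.24 with Ad-Cre (0.84 ± 0.17, adjusted p = 0.184). Rps3 itself, over 10 probe sets, gave 0.07. Hspa8, the constitutive heat shock protein, with Snord14e read 10.05, 10.04 and 10.05 against 10.36, 10.32 and 10.33, a difference of 0.29 with little spread, while Hspa8 alone gave 0.04. Snhg8 with Snora24 gave 0.48, the same as Snhg8 alone (0.48). The 16 probe sets of Snord116 copies held 1 distinct value pattern, so they are a single measurement, of -0.03.

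Clustered protocadherins are cell-surface proteins whose alternative first exons are spliced to shared constant exons. All 4 of their combinations had a mean difference below 0, and 2 of the 4 had an unadjusted p under 0.05 (background 5.56% lower). The alpha combinations share symbols, so these are not 4 separate readings to set beside that background. The combination of 14 alpha protocadherins (4 probe sets) read 10.55, 10.84 and 10.69 in the Ad-GFP controls and 9.39, 9.48 and 10.02 with Ad-Cre. The groups did not overlap (-1.07 ± 0.16, adjusted p = 0.113). A combination of 9 of these symbols (11 probe sets) gave -0.50 ± 0.09, and one of gamma protocadherins (22 probe sets) gave -0.12 ± 0.09. A combination of 10 alpha symbols (1 dim probe set) gave -0.28 ± 0.34 and did not hold one direction, at 0.66, -1.15 and -0.35 in lines 2, 7 and 8. Single alpha exons were mixed, from -0.41 for Pcdha4 to 0.37 for Pcdha5.

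Of 14 combinations of replication-dependent histones, 9 were lower and 5 higher, with 2 lower (background 5.56%) and 0 higher (background 6.79%) at an unadjusted p under 0.05. Hist3h2ba/Hist3h2bb-ps gave -0.78 ± 0.15. Its signals were 7.09, 6.94 and 7.64 in the controls against 5.91, 6.26 and 7.15 after Cre, and the groups overlapped through line 8. A combination of Hist1h4 genes gave 0.73, most of it in line 2 (7.15 in the Ad-GFP controls and 8.73 with Ad-Cre).

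Cyp3a11 and its relatives, drug-metabolising cytochromes of liver, were dim. The combination of Cyp3a11, Cyp3a41a and Cyp3a41b read 4.72, 4.69 and 4.74 in the Ad-GFP controls and 5.24, 6.78 and 5.50 with Ad-Cre (1.13 ± 0.32), and that with Cyp3a44 gave 1.05 ± 0.27. Without line 7 they gave 0.64 and 0.69. Cyp3a11 alone gave 0.24. Both combinations stayed below the lower quartile of all values on every array except Ad-Cre of line 7. Of 15 combinations of cytochromes, sulfotransferases and glutathione transferases, 3 were higher (background 6.79%) and 1 lower (background 5.56%) at an unadjusted p under 0.05.

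Tcp10a/Tcp10b, testis genes of chromosome 17, gave 0.87 ± 0.14 over 2 dim probe sets, while each gene alone gave -0.08 and -0.09. Of 9 combinations of interferon-induced genes, 2 were higher (background 6.79%) and 1 lower (background 5.56%) at an unadjusted p under 0.05. Ifi27l2a/Ifi27l2b gave 0.58 and 2900011O08Rik/Ifitm7 gave -0.82 (-0.54 without line 2), and 2900011O08Rik alone gave -1.05.

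Other lists are read against the table's 6.79% higher and 5.56% lower at an unadjusted p under 0.05. By that rule there were 3 higher and 0 lower of 22 with zinc finger genes, 2 higher and 1 lower of 57 with ribosomal protein genes, and 1 higher and 2 lower of 108 with olfactory, vomeronasal or taste receptors. Of 18 with imprinted genes there were 0 higher and 1 lower, and of 12 with antisense transcripts 1 higher and 0 lower. None of the 4 UGT1A, 5 Hox, 6 MHC, 4 serpin and kallikrein, 10 readthrough or 2 antigen receptor combinations had such a p, and their median differences were 0.30, 0.09, 0.03, -0.03, 0.01 and 0.01. The imprinted one was Snrpn/Snurf, whose 3 shared probe sets read 11.40, 11.18 and 11.41 in the Ad-GFP controls and 10.63, 10.94 and 11.12 with Ad-Cre (-0.43 ± 0.13, adjusted p = 0.321, and -0.26 without line 2).

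Combinations that share a symbol were joined into chains, a grouping made after the values were seen. The 1566 combinations fell into 938 chains, 769 of them of 1 combination, and 138 chains held at least 1 combination with an unadjusted p under 0.05. The longest chain joined 62 symbols in 114 combinations (174 probe sets). RefSeq places 61 of the 62 symbols on chromosome 14, and nearly all are predicted genes such as Gm3002, D830030K20Rik and 4930555G01Rik. Of its combinations, 93 were lower and 21 higher, and 36 lower and 4 higher had an unadjusted p under 0.05, or 35.1% (background 12.4%). The 40 with such a p held 32 distinct value patterns, and one pattern of the chain recurred under 5 combinations. Combinations of the chain share symbols, so they are not 114 separate readings to set beside that background.

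The median difference in that chain was -0.23, with -0.21, -0.19 and -0.24 in lines 2, 7 and 8. The chain held 36 of the 107 lower combinations. Outside it, 158 of 1452 combinations had an unadjusted p under 0.05 (10.9%), 87 higher and 71 lower. In the chain, Gm2237/Gm3173/Gm3636 had the lowest p, with 5.78, 6.04 and 5.87 in the Ad-GFP controls and 4.41, 5.39 and 5.13 with Ad-Cre (-0.92 ± 0.16, adjusted p = 0.146). The bright combination of D830030K20Rik, Gm10340, Gm3002 and Gm5796 read 9.77, 9.72 and 9.82 against 9.44, 9.16 and 9.45 (-0.42).

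Among chains of 7 combinations, those of AA792892 and of Ifnz had the highest median differences (1.13 and 0.49) and are described here. Each was much shorter than the longest chain. The chain of AA792892 and C87414 (listed by RefSeq as a PRAME-like gene, a family active in germ cells and early embryos) covered 13 probe sets on chromosome 5. All 7 combinations were higher in the mean, 6 of them at an unadjusted p under 0.05 (background 6.79%). They share symbols, so they are not 7 separate readings to set beside that background. The longest combination read 6.50, 6.44 and 6.74 in the Ad-GFP controls and 8.66, 8.47 and 7.32 with Ad-Cre (1.59 ± 0.34, adjusted p = 0.195). Lines 2 and 7 had medians of 1.87 and 1.61, and line 8 of 0.53. In line 8, C87414/Gm3259/Gm6367 (-0.12) and Gm3089/Gm7919 (-0.38) were lower. AA792892/LOC100862150, over 4 probe sets with 3 distinct value patterns, gave 0.95 ± 0.13 (adjusted p = 0.110). With identical probe sets counted once it gave 0.75. It was dim, at 4.14, 4.29 and 4.23 with Ad-GFP and 5.40, 5.24 and 4.87 with Ad-Cre. Every array there was below the lower quartile of all values.

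The chain of Ifnz, interferon zeta, with 14 predicted genes of the interferon cluster on chromosome 4 covered 35 probe sets. All 7 combinations were higher in all 3 lines, and 6 had an unadjusted p under 0.05 (background 6.79%). These combinations share symbols too and are not 7 separate readings. The combination of all 15 symbols read 8.10, 8.05 and 7.90 in the Ad-GFP controls and 9.26, 8.40 and 8.54 with Ad-Cre, without overlap (0.72, adjusted p = 0.240). Medians were 0.83, 0.40 and 0.15 in lines 2, 7 and 8.

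Receptor and X-linked chains differed by line. In the Vmn1r chain of 28 combinations (chromosome 7) the medians were 0.31, -0.13 and -0.36 in lines 2, 7 and 8, and in the Slx chain of 66 (chromosome X) 0.24, -0.22 and -0.36. The Slx chain had 0 higher and 2 lower at an unadjusted p under 0.05 with all lines (backgrounds 6.79% and 5.56%), and 2 higher and 32 lower without line 2 (backgrounds 9.04% and 8.09%). The Slx combinations share symbols and are not 66 separate readings to set beside these backgrounds. The median Ad-GFP signal was 7.11 in the Vmn1r chain and 5.77 in the Slx chain.

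In 462 pairs each gene also had at least 2 probe sets of its own, so that the shared value could be set beside both. It lay between the own values in 168 pairs and outside both in 294, where the median distance outside was 0.10 and only 10 exceeded 0.5. It was nearer to the gene with the brighter own probe sets in 231 of 462. In 51 pairs the own values were more than 0.5 apart, and the shared value lay between them in 37.

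The widest gap was at Has2, the hyaluronan synthase. Its 5 own probe sets read 10.40, 9.71 and 9.91 in the Ad-GFP controls and 7.29, 7.27 and 7.67 with Ad-Cre (-2.60). The 2 probe sets shared with the antisense transcript Has2as read 8.61, 8.40 and 8.25 in the Ad-GFP controls and 8.95, 8.10 and 7.51 with Ad-Cre (-0.23 ± 0.22). The shared signal was higher in line 2 and lower in lines 7 and 8, like that of Has2as alone (5.81, 5.83 and 5.37 with Ad-GFP, 6.23, 5.06 and 5.12 with Ad-Cre).

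Jmjd8 gave -1.80 and its overlapping neighbour Stub1, a ubiquitin ligase, 0.16, and their 5 shared probe sets gave -0.17. Dscaml1, an adhesion molecule, gave -1.74 and Nme2, a nucleoside diphosphate kinase on another chromosome, 0.08, and their 2 shared probe sets gave 0.00. E130309F12Rik gave -1.36 and Mtfr1 0.00, and the shared value was 0.15. In these 3 pairs the shared value lay nearer the gene with the smaller difference.

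In other pairs the shared value lay nearer the gene that differed more, or outside both. The shared value of Gpr39/Lypd1 (-0.96) was near that of Lypd1 (-1.03), and that of 2700099C18Rik/Gm1976 (-0.77) was between -1.21 and 0.41. The shared value rested mostly on line 2, at -1.63, with -0.63 in line 7 and -0.03 in line 8 (-0.33 without line 2), and 2700099C18Rik alone gave -2.74, -0.72 and -0.17. Farthest outside both genes were Churc1/Fntb (by 2.43), Tcp10a/Tcp10b (by 0.95), 1700027H10Rik/Pcdh10 (by 0.94) and Mns1/Tex9 (by 0.74). The Mns1/Tex9 probe sets read 10.16, 10.02 and 10.27 in the Ad-GFP controls and 7.65, 9.62 and 9.36 with Ad-Cre (-1.28 ± 0.42, and -0.66 without line 2), against -0.54 for Mns1 and -0.10 for Tex9.

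Line 2 alone moved 8 combinations by more than 2 log2 units while lines 7 and 8 stayed within 0.5 (5 higher and 3 lower). H19, an imprinted long RNA that is the precursor of miR-675, read 6.29 in the Ad-GFP controls and 10.49 with Ad-Cre in line 2 over the probe set shared with Mir675. In line 7 the same probe set read 7.13 and 6.70, and in line 8 6.25 and 6.13. Several H19 probe sets were also highest on the same array, such as 7.25 in the Ad-GFP controls and 11.75 with Ad-Cre in line 2 for one of the 14.

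The others higher in line 2 were Dll4/Gm14207 (2.64), Gbp1/Gbp2 (2.38), Cntf/Zfp91 (2.10) and Lrrc8a/Phyhd1 (2.09). Lower in line 2 were Lcorl/Ncapg (-3.20), Slfn8/Slfn9 (-2.24) and Arxes1/Arxes2 (-2.08). Ncapg encodes a condensin subunit of mitotic chromosomes, Gbp1 and Gbp2 are interferon-induced GTPases, and Dll4 is a Notch ligand. These are differences between 2 arrays and have no replicate in another line.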

How the data were processed

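The values are log2 signals per probe set that the authors deposited, which the submitters' processing notes credit to RMA in Affymetrix Expression Console. Their versions and the genome build are not given, and arrays give no read depth, so their number (6) limits the precision. Symbols came from the platform annotation, and RefSeq (GRCm38.p6) gave placement and sequences. Probe sets with 1 symbol were summarised per gene and those with several per combination by Tukey median polish (at most 20 iterations). Ad-Cre was compared with Ad-GFP in limma 3.58.1 (R 4.3.3) with line as a fixed block and a variance trend. Benjamini-Hochberg adjustment ran over all 24725 genes and combinations, or all 269751 probe sets. The line numbers pair the arrays: deviations of same-numbered arrays correlated at 0.226, 0.163 and 0.333, and the design gives each line both viruses.

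The 111 combinations named were chosen by rule: in each direction the 10 largest differences with unadjusted p under 0.01 and one direction in all 3 lines (passing over combinations of predicted genes alone), the lowest p and most probe sets per class and list, and the pairs whose own values lay farthest apart or whose shared value lay farthest outside. The name C87414 was not counted as predicted, so combinations that list it with predicted genes took places among the higher 10. Members, lists and tests were chosen with earlier results of these data known, and 3 list patterns were tightened and the chains of combinations formed after values were seen. Combinations described by chain, by promoter window or by line 2 alone, and further small RNA loci, were also chosen after their values were seen. Rows listing 4 symbols were left out, and the fit was tested on simulated data. Alternatives were no block, a random block, each line left out, mean summaries, quantile normalization, a filter on dim units, no variance trend, at least 2 probe sets, line 8 exchanged and, added later, identical probe sets counted once.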

Additional observations from a re-analysis of the deposited data

Results flagged for a closer look

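One combination of alpha protocadherins (10 symbols, 1 probe set) differed between lines: its difference was 0.66 in line 2 and -1.15 in line 7. It was picked out because the lines moved in opposite directions, and that difference was not tested, with 1 array per virus in each line.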

How the results depend on the processing

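The count of combinations past an adjusted p of 0.05 (0 of 1566) was 7 with line as a random block and 1 with the mean of probe sets, and ranged from 0 to 44 when a line was left out, 44 being the count without line 2. The count at an unadjusted p under 0.05 (198) was 71 with line 8 exchanged and 96 among 864 combinations of at least 2 probe sets, and ranged from 161 to 345 when a line was left out. Without the replicate block, 164 combinations had such a p and 0 passed after adjustment. For probe sets (316), the count was 93 with line 8 exchanged and ranged from 213 to 342 when a line was left out, and it was 299 without the block. Of 590 values of the 52 named combinations with an unadjusted p under 0.05 under alternatives, 589 kept their direction. Much of that count was fixed in advance. Changing the block, dropping the variance trend or filtering combinations leaves the difference itself unchanged (Churc1/Fntb stayed at -3.25 without the block). A combination with one direction in every line cannot turn when a line is left out. For these settings the count does not test direction. Mir21/Vmp1 turned to -0.20 with line 8 exchanged. Under that exchange, which turns the sign of line 8 in each mean, 43 of the 52 shrank by more than 1.5 times or turned, and the median was 53.2% of the main difference: Cd97/Ddx39 went from -0.83 to -0.18, Gm2061/Slc30a10 from -0.95 to -0.27 and Mrps6/Slc5a3 from 0.72 to 0.29. A difference that line 8 shared in direction must shrink this way, so these values do not test the labels. The causes were not tested.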
